A study of Mus musculus with 1600 samples.

Results

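The genes described here are 9 components of the bone morphogenetic protein (BMP) pathway: the co-receptor Eng, the receptors Acvrl1 and Bmpr2, the signal carrier Smad1, the inhibitors Smad6 and Smad7, and the target genes Id1, Id2 and Id3. They were chosen by name from the pathway, with earlier results of these data known. All 9 were found among the 45792 gene identifiers of the count tables, and all 9 passed the low-count filter of every test below.

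BMP ligands bind a type I receptor (such as ALK1, the product of Acvrl1) together with a type II receptor (such as Bmpr2), and endoglin, the product of Eng, presents ligand to ALK1 on endothelial cells. The receptors phosphorylate Smad1 and its close relatives, which enter the nucleus and induce the Id genes and the inhibitors Smad6 and Smad7. Id proteins bind E proteins, which are transcription factors of the basic helix-loop-helix class, and keep them off DNA. In vascular endothelium the axis of Eng, Acvrl1 and Bmpr2 is known for its mutations in hereditary haemorrhagic telangiectasia and pulmonary arterial hypertension.

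The wells came from glomeruli, the filtering capillary tufts of the kidney, of Nos3-/- mice on a C57BL/6 background, which lack endothelial nitric oxide synthase. Diabetes was produced with streptozotocin, which kills pancreatic beta cells, given intraperitoneally to mice 8 weeks old on 5 days in a row, with a daily dose of 50 µg per g. Controls were littermates given citrate vehicle, so both groups carried the Nos3 deletion, and all mice were 10 weeks old. Glomeruli of 3 mice were pooled for each condition in each of 2 experiments, which gives 4 pools, named here control 1, control 2, diabetes 1 and diabetes 2 after the experiment. Single cells were captured on a Fluidigm C1 array, a microfluidic chip whose wells are imaged to count cells before RNA is sequenced.

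Of 833 wells imaged with 1 cell, 639 were kept, with between 120 and 203 wells per pool. The median depth of the kept wells was 32222 and 43577 reads in experiment 1 (control, diabetes) and 219072 and 176715 reads in experiment 2, so experiment and depth cannot be told apart. The design text describes sex-matched littermates, but the female transcript Xist stood at 508 and 299 CPM (a gene's reads scaled to the total reads of the same summed wells) in the endothelial-like sums of the controls and at 0.934 and 0.0981 CPM in diabetes, and 4 Y-linked genes summed to 0.237 and 0.839 CPM against 183 and 169 CPM. Sex and diabetes therefore cannot be told apart in any comparison of conditions below. Nos3 reads stood between 71.1 and 103 CPM in the endothelial-like sums, and without wild-type wells and with the deleted part not given this does not check the genotype.

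Wells were grouped into classes by clustering that left out the 9 genes and 53 other genes of the pathway, so the classes do not rest on them, and each class was named from marker genes. The endothelial-like class held 42, 84, 70 and 93 wells in control 1, control 2, diabetes 1 and diabetes 2. In the same order the mesangial-like class held 29, 65, 5 and 22 wells, the podocyte-like class 20, 22, 1 and 9, and the immune-like class 5, 6, 27 and 42. The reads of a class were summed within each pool, and a level below is the CPM of such a sum. The single podocyte-like well of diabetes 1 was left out, so that class has 3 sums. Against their markers the classes differed: the 14 endothelial markers summed to 18798 to 23426 CPM in the endothelial-like sums and to 1954 to 3681 CPM in the mesangial-like, 118 to 1132 CPM in the podocyte-like and 562 to 7718 CPM in the immune-like sums.

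Wells imaged as empty also gave reads, so RNA was present without an imaged cell. They numbered 195, 111, 184 and 98 in control 1, control 2, diabetes 1 and diabetes 2, with median depths of 2212, 33610, 2397 and 32994 reads. Their sums held all 9 genes, and the 14 endothelial markers reached 4859 to 11345 CPM in them. The part of such RNA in the levels below was not tested gene by gene, except by subtracting the empty-well profile from each sum.

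Promoter stretches show what sequence the members share that their choice did not use. RefSeq promoters on GRCm38.p6, from 250 bases before to 50 after the start, matched 6 of the 9 genes: Eng, Bmpr2, Id2, Id3, Smad1 and Smad6. No promoter of Acvrl1, Id1 or Smad7 was analysed here. The letters GGCGCC, a palindrome known as a GC-rich binding element of Smad1, and CAGAC, which holds the shorter Smad-binding box, were searched on both strands. The stretches printed here lie upstream of the RefSeq start and outside exons of GENCODE M21, 5′ to 3′ on the gene's strand, and capitals mark either motif. They are Eng at chr2:32646345-32646594 (plus strand), Id2 at chr12:25096254-25096342 (minus strand), Smad1 at chr8:79399519-79399678 (minus strand) and Smad6 at chr9:64022060-64022309 (minus strand).
Eng: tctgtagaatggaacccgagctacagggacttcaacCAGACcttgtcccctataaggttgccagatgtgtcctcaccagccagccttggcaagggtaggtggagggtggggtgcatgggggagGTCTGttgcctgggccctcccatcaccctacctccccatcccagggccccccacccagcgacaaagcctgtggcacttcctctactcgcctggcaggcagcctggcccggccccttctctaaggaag
Id2: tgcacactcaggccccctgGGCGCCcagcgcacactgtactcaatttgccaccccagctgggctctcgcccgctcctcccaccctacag
Smad1: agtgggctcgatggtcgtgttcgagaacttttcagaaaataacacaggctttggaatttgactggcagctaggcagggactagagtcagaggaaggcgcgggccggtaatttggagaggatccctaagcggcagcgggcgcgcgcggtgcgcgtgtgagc
Smad6: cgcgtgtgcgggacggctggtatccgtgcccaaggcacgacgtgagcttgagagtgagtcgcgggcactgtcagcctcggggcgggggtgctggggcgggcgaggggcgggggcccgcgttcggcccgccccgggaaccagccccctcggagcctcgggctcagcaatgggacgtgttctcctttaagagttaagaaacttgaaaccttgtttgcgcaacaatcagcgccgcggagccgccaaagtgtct
In the Eng stretch CAGAC began 214 and 127 bases before the start, the second time on the reverse strand. In the Id2 stretch GGCGCC began 231 bases before the start. This stretch lies inside the GENCODE span of Id2, in an intron of a transcript that starts further upstream. Bmpr2 held GGCGCC once in its window and Id3 held CAGAC 2 times, in bases that are annotated as exon and are not printed. Smad1 and Smad6 held neither motif in their windows. GGCGCC was in 11.9% and CAGAC in 49.6% of all 32851 promoters of the same length, so 2 of the 6 members had GGCGCC and 2 of the 6 had CAGAC beside those shares. The 6 windows had a GC content of 59.3% to 66.3%, and the median of all promoters was 52.7%. A match is a description and not a site, and no match says only that these letters are not in the window.

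**Figure D1:**
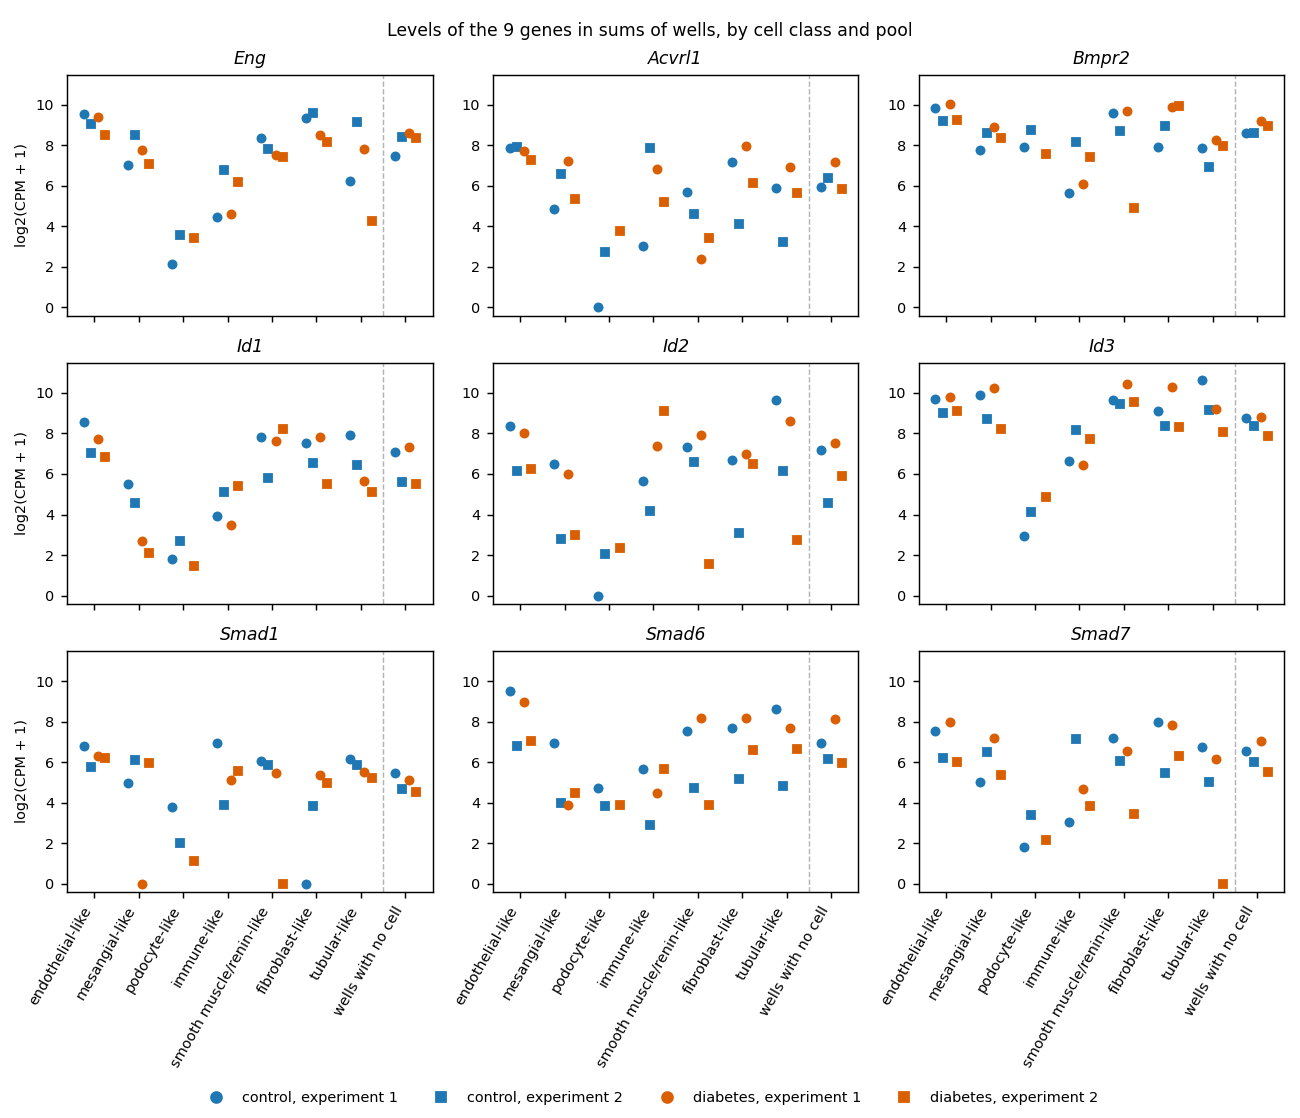
Level of each of the 9 genes as log2(CPM + 1) of the summed wells (y axis) in 7 cell classes and in wells with no cell (x axis); each point is the sum of 1 pool, with colour for condition and shape for experiment, and there are no error bars. Podocyte-like wells had the lowest median for 8 of the genes, all but Bmpr2, and wells with no cell held every gene.

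The co-receptor Eng had its highest median level in endothelial-like wells. Eng (ENSMUSG00000026814.14; GRCm38 chromosome 2, 32646595 to 32682669, plus strand) stood at 737, 524, 675 and 369 CPM in the endothelial-like sums of control 1, control 2, diabetes 1 and diabetes 2. In mesangial-like sums it stood at 130.1, 360.3, 218 and 132 CPM, in the 3 podocyte-like sums at 3.37, 11.1 and 9.72 CPM, and in immune-like sums at 21.4, 108, 23.5 and 71.4 CPM. Every endothelial-like sum was above every sum of the other 3 classes, though diabetes 2 at 369 CPM was close to the highest mesangial-like sum at 360.3 CPM. In the fit over the 4 classes (edgeR quasi-likelihood with Benjamini-Hochberg adjustment over all 12152 genes tested), Eng was higher than in podocyte-like wells by 6.28 ± 0.92 on the log2 scale (estimate ± SE, as in all fits below; adjusted p = 0.000289) and than in immune-like wells by 3.41 ± 0.72 (adjusted p = 0.00896). Each SE is the absolute log2 change divided by the square root of edgeR's F statistic, so it is approximate. The difference of Eng from mesangial-like wells was 1.73 ± 0.65 and missed the threshold (edgeR, adjusted p = 0.183). Mesangial-like wells were above podocyte-like wells by 4.55 ± 0.84 (adjusted p = 0.00335). The empty wells stood at 178, 345, 395 and 334 CPM of Eng, at or above the mesangial-like sums in 3 of the 4 pools. The gene overlaps the minus-strand gene Fpgs, and whether strand was used in counting is not given.

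Acvrl1, the type I receptor ALK1, was higher in endothelial-like than in podocyte-like wells. Acvrl1 (ENSMUSG00000000530.14; chromosome 15, 101128522 to 101145336, plus strand) stood at 233, 242, 207 and 153 CPM in endothelial-like sums. Its mesangial-like sums were 28, 93.8, 149 and 39.3 CPM, its podocyte-like sums 0, 5.73 and 12.6 CPM, and its immune-like sums 7.12, 235, 113 and 36.5 CPM. The endothelial-like sums lay above all mesangial-like and podocyte-like sums and overlapped the immune-like ones. A finer clustering called only 4, 3, 23 and 16 of the immune-like wells immune-like. Acvrl1 stood at 7.59, 14.9, 112 and 43.9 CPM in those, below every endothelial-like sum. A single well gave 96.6% of the Acvrl1 reads in the immune-like sum of control 2. The podocyte-like sum of control 1, with no read, allows up to 2.53 CPM (3 counts). Only the difference from podocyte-like wells passed, at 5.14 ± 1.29 (edgeR, adjusted p = 0.0191), and those from mesangial-like wells (1.97 ± 0.96, adjusted p = 0.398) and immune-like wells (1.55 ± 1.01, adjusted p = 0.504) did not. The gene overlaps the minus-strand gene Gm16031.

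Bmpr2, the type II receptor, was higher in endothelial-like than in immune-like wells, and it was the member with the smallest fitted difference from podocyte-like wells. Bmpr2 (ENSMUSG00000067336.6; chromosome 1, 59763400 to 59879014, plus strand) stood at 905, 588, 1062 and 604 CPM in endothelial-like sums and at 219.7, 387, 486 and 332 CPM in mesangial-like sums. Podocyte-like sums held 243, 427 and 189 CPM, and immune-like sums 49.8, 282, 67.1 and 169 CPM. In the immune-like wells that a finer clustering also called immune-like, Bmpr2 stood at 15.2, 6.64, 36.1 and 98 CPM. Again every endothelial-like sum was above every other, and mesangial-like and podocyte-like sums overlapped. Empty wells held 388, 386.3, 595 and 489 CPM of Bmpr2, above the mesangial-like sum of the same pool in all but control 2. Bmpr2 was higher in endothelial-like than in immune-like wells by 2.41 ± 0.60 (edgeR, adjusted p = 0.0290). The differences from mesangial-like (1.30 ± 0.56, adjusted p = 0.282) and podocyte-like wells (1.43 ± 0.64, adjusted p = 0.209) missed the threshold, and mesangial-like and podocyte-like wells differed by 0.13 ± 0.61 (adjusted p = 0.976).

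Smad1, which carries the signal to the nucleus, differed between no 2 classes past the threshold. Smad1 (ENSMUSG00000031681.12; chromosome 8, 79338395 to 79399518, minus strand) stood at 109.8, 52.5, 77.8 and 71.8 CPM in endothelial-like sums and at 29.9, 66.7, 0 and 61.8 CPM in mesangial-like sums. The sum at 0 came from 5 wells and allows up to 8.28 CPM (3 counts). Podocyte-like sums were 12.6, 2.95 and 1.14 CPM, and immune-like sums 121, 13.5, 33.5 and 45.8 CPM. Endothelial-like sums were above podocyte-like sums without overlap and overlapped both other classes. Smad1 passed in no class comparison, and its largest difference, endothelial-like over podocyte-like, was 4.23 ± 1.44 (edgeR, adjusted p = 0.0863). A single well held 84.4% of its mesangial-like reads in control 1.

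Smad6, the inhibitory Smad that acts mainly on BMP receptors, was called higher in endothelial-like than in mesangial-like wells, although its sums overlapped and the call depended on every pool. Smad6 (ENSMUSG00000036867.7; chromosome 9, 63953076 to 64022059, minus strand) stood at 730.1, 109, 506 and 133 CPM in endothelial-like sums. Mesangial-like sums were 120.4, 14.8, 13.8 and 20.8 CPM, podocyte-like sums 25.3, 13.1 and 13.7 CPM, and immune-like sums 49.8, 6.31, 21.2 and 49.3 CPM. In each of the 4 pools the endothelial-like sum was the higher, but the ranges touched. The mesangial-like sum of control 1 at 120.4 CPM was above the endothelial-like sum of control 2 at 109 CPM. Both endothelial-like sums of experiment 1 were high, while among the mesangial-like sums control 1 alone was. Empty wells held 121.1, 71.1, 278 and 61.5 CPM of Smad6, above the mesangial-like sum of each pool and below the endothelial-like one. With the pool as a block, Smad6 was higher in endothelial-like wells than in mesangial-like wells by 3.31 ± 0.87 (edgeR, adjusted p = 0.0454) and than in podocyte-like wells by 3.88 ± 1.03 (adjusted p = 0.0265). Against immune-like wells the difference of 3.22 ± 0.89 missed the threshold (adjusted p = 0.0521), and it passed in some alternatives (adjusted p = 0.0428 with RLE scaling, 0.000442 with DESeq2). The call against mesangial-like wells was lost without any 1 of the 4 pools, where the adjusted p ran from 0.123 to 0.246 at log2 fold changes of 2.69 to 3.73. It was also lost without the block (edgeR, adjusted p = 0.0763) and with the empty-well profile subtracted (adjusted p = 0.187). It held in 8 of 14 alternatives, with DESeq2 giving the smallest adjusted p at 0.000198. Among the 8 is 1 that kept smaller sums and only repeated the main fit.

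Smad7, the inhibitor shared with the transforming growth factor beta branch, was higher in endothelial-like than in podocyte-like wells. Smad7 (ENSMUSG00000025880.9, plus strand of chromosome 18) stood at 182, 72.4, 252 and 62.8 CPM in endothelial-like sums and at 31.8, 88.5, 143 and 40.2 CPM in mesangial-like sums. Podocyte-like sums were 2.53, 9.54 and 3.43 CPM, and immune-like sums 7.12, 139.7, 24.2 and 13.2 CPM, where 1 well gave 96.8% of the reads of control 2. In the immune-like wells that a finer clustering also called immune-like, Smad7 stood at 0, 8.31, 2.12 and 4.32 CPM. Empty wells held 91.3, 63.3, 129 and 44.6 CPM of Smad7, below the endothelial-like sum of each pool. The endothelial-like sums overlapped those of mesangial-like wells and of the whole immune-like class and cleared those of podocyte-like wells. That last difference passed at 4.76 ± 1.26 (edgeR, adjusted p = 0.0257), and the others, 1.27 ± 0.94 and 2.03 ± 1.06, did not (adjusted p = 0.732 and 0.370).

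The 3 Id genes are inhibitors of differentiation and standard readouts of BMP signalling. Id1 (ENSMUSG00000042745.9; chromosome 2, 152736251 to 152737410, plus strand) stood at 373, 129.9, 208 and 114 CPM in endothelial-like sums. Its mesangial-like sums were 43.9, 22.4, 5.52 and 3.24 CPM, its podocyte-like sums 2.53, 5.55 and 1.72 CPM, and its immune-like sums 14.2, 33.4, 10.3 and 41.7 CPM. Endothelial-like sums did not overlap any of the 3. Empty wells held 137, 48.2, 161 and 45.1 CPM of Id1, above the mesangial-like sum of each pool and below the endothelial-like one. Id1 was higher in endothelial-like than in podocyte-like wells by 6.03 ± 1.38 (edgeR, adjusted p = 0.0109), and its difference from mesangial-like wells, the largest of the 9 members there at 3.82 ± 1.08, missed the threshold (adjusted p = 0.0655). It passed in 6 of 14 alternatives, with DESeq2 giving the smallest adjusted p at 0.000267. The difference from immune-like wells was 2.64 ± 1.07 (adjusted p = 0.211).

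Id3 was higher in both endothelial-like and mesangial-like wells than in podocyte-like wells. Id3 (ENSMUSG00000007872.3; chromosome 4, 136143497 to 136145755, plus strand) stood at 836, 513, 892 and 556 CPM in endothelial-like sums and at 966, 414, 1234 and 293 CPM in mesangial-like sums, with 2 pools higher in each class. Podocyte-like sums held 6.73, 16.5 and 28 CPM and immune-like sums 99.7, 283, 86.8 and 208 CPM, below every endothelial-like and mesangial-like sum. The difference between endothelial-like and mesangial-like wells was -0.02 ± 0.60 on the log2 scale (edgeR, adjusted p = 0.999), and this error leaves room for a difference of either sign. Both classes were above podocyte-like wells, by 5.13 ± 0.84 (adjusted p = 0.000725) and 5.15 ± 0.85 (adjusted p = 0.00128). The difference from immune-like wells was 1.78 ± 0.65 (adjusted p = 0.158). That Id1 and Id3 differ in their contrast of endothelial-like and mesangial-like wells was not tested.

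Id2 was higher in endothelial-like than in podocyte-like wells and varied widely among pools. Id2 (ENSMUSG00000020644.8; chromosome 12, 25093799 to 25097140, minus strand) stood at 326, 69.5, 257 and 74.3 CPM in endothelial-like sums and at 90.6, 6.01, 63.5 and 6.81 CPM in mesangial-like sums. Podocyte-like sums held 0, 3.12 and 4 CPM, and immune-like sums 49.8, 17.1, 163 and 553 CPM. In both endothelial-like and mesangial-like wells the pools of experiment 1 were the high ones, and of the 3 other classes, podocyte-like sums alone stayed clear of the endothelial-like range. Empty wells held 147, 22.6, 184 and 59 CPM of Id2, above the mesangial-like sum of each pool and below the endothelial-like one. Id2 was above podocyte-like wells by 5.16 ± 1.43 in endothelial-like wells (edgeR, adjusted p = 0.0327). It differed by 2.36 ± 1.07 from mesangial-like wells (adjusted p = 0.336) and by -0.17 ± 1.22 from immune-like wells (adjusted p = 0.967).

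Counted over the members, 1 of 9 was called higher in endothelial-like than in mesangial-like wells (Smad6), where 0.798% of all genes tested were. Against podocyte-like wells 7 of 9 were called, all but Bmpr2 and Smad1, beside 3.56% of all genes. Podocyte-like reads in control 1, control 2 and diabetes 2 were few for Acvrl1 (0, 33 and 22) and Id1 (3, 32 and 3). They were also few for Id2 (0, 18 and 7) and Smad7 (3, 55 and 6). The sizes of these fold changes over podocyte-like wells thus rest on low counts. Against immune-like wells 2 of 9 were called, Eng and Bmpr2, beside 0.848%. Mesangial-like over podocyte-like wells gave 2 of 9, Eng and Id3, beside 2.4%, and the 7 members not called there differed by 0.13 to 3.49 on the log2 scale. No member was called lower in any of the 4. Against podocyte-like wells Eng and Id3 stayed past the threshold in all 14 alternatives run, with adjusted p-values of at most 0.0108 and 0.0130. The 14 include 1 that kept smaller sums and only repeated the main fit. Among other settings, Id1 and Id2 were lost with the stricter mitochondrial limit (adjusted p = 0.0745 and 0.0576), Id2 and Smad7 with classes by markers alone (0.0527 and 0.132), and Smad6 with the empty-well profile subtracted (0.0918). The 5 calls other than Eng and Id3 were lost without control 1 and also without control 2, with adjusted p-values of 0.104 to 0.237 and 0.0726 to 0.170. Id1, Id2, Smad6 and Smad7 were also lost without diabetes 2 (adjusted p = 0.0732 to 0.136), and Id2 and Smad6 without diabetes 1 (adjusted p = 0.0584 and 0.0577). Both calls against immune-like wells were lost without control 1 and without diabetes 1 (adjusted p = 0.0627 to 0.192). Of the mesangial-like calls, Id3 held in all 14, and Eng was lost without control 2 (adjusted p = 0.0821). The median log2 fold change of the members was 1.73 beside 0.28 for all genes, 5.13 beside 0.42, 2.03 beside 0.56, and 3.17 beside 0.14, in the same order. Members whose sums did not overlap numbered 4 of 9 for endothelial-like above mesangial-like wells (8.12% of all genes), 9 of 9 above podocyte-like wells (17.5%), 5 of 9 above immune-like wells (13.4%) and 5 of 9 for mesangial-like above podocyte-like wells (8.17%).

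**Figure D2:**
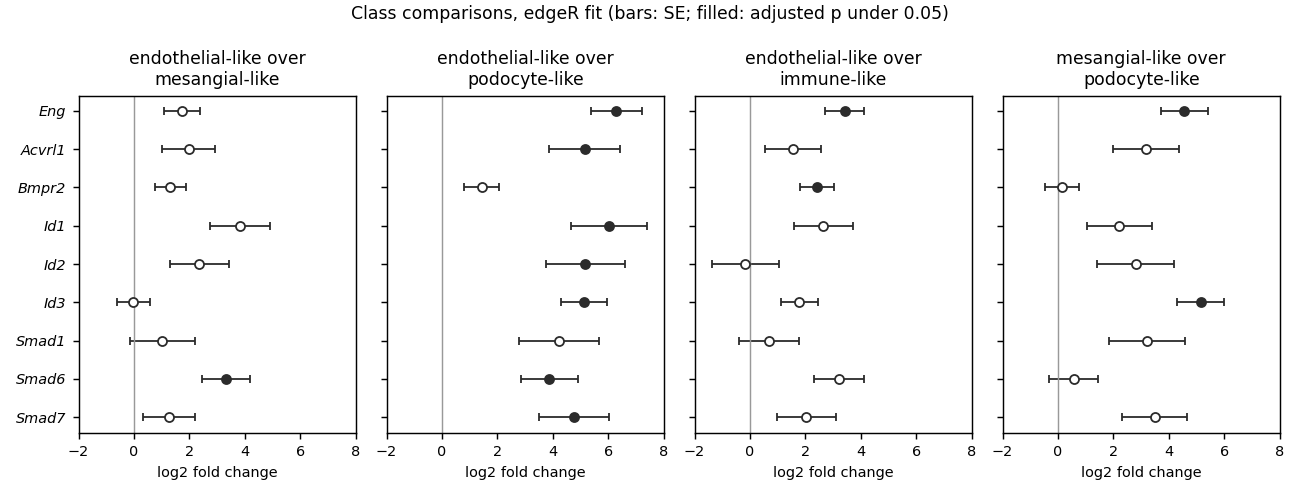
Log2 fold change (x axis) of each of the 9 genes (y axis) in 4 comparisons of cell classes from the edgeR fit over 15 sums of wells; bars are 1 SE and filled points have an adjusted p under 0.05. The filled points number 1, 7, 2 and 2 from left to right, and Id3 sits at -0.02 between endothelial-like and mesangial-like wells and above 5 in both comparisons with podocyte-like wells.

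Over all 7 named classes, including smooth muscle or renin cell-like, fibroblast-like and tubular-like wells, the endothelial-like class had the highest median level for Eng, Acvrl1, Bmpr2, Smad1 and Smad6. The smooth muscle or renin cell-like wells were first for Id1 and Id3, the tubular-like wells for Id2 and the fibroblast-like wells for Smad7. These 3 further classes had between 3 and 15 wells per pool and were described without a test. Endothelial-like and fibroblast-like wells were neighbours for Eng, with medians of 599 and 510 CPM and overlapping ranges (369 to 737 and 287 to 762 CPM). Podocyte-like wells were last for 8 members, and immune-like wells for Bmpr2. Nearly all neighbours in the order had overlapping ranges. The exceptions were immune-like over podocyte-like wells for Eng, mesangial-like over podocyte-like wells for Id2, and fibroblast-like over immune-like and immune-like over podocyte-like wells for Id3.

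The endothelial-like class joined 3 clusters, of 106, 66 and 117 wells. The conditions were spread unevenly over them: in control 1, control 2, diabetes 1 and diabetes 2 the first held 18, 52, 15 and 21 wells, the second 17, 9, 26 and 14, and the third 7, 23, 29 and 58. The ranges of all 9 members over the 4 pools overlapped among them. Eng had medians of 580.5, 839 and 448 CPM and Bmpr2 of 818, 1021 and 541 CPM, with the cluster of 66 wells highest for both. Smad7 had medians of 131, 272 and 31.8 CPM, but its range in the cluster of 117 wells ran from 20 to 280.4 CPM.

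Per well, the members were compared after thinning to 10000 reads, so that depth did not set the shares, and wells with fewer reads were dropped. This left 35, 84, 65 and 93 endothelial-like wells and 17, 105, 14 and 92 empty wells in control 1, control 2, diabetes 1 and diabetes 2. In experiment 1 the empty-well shares thus come from the few deepest of 195 and 184 empty wells. Eng reads were then found in 85.7% (95% exact binomial interval 69.7% to 95.2%), 81% (70.9% to 88.7%), 87.7% (77.2% to 94.5%) and 69.9% (59.5% to 79%) of endothelial-like wells in control 1, control 2, diabetes 1 and diabetes 2. In podocyte-like wells the share was 5%, 13.6% and 11.1%, and in thinned empty wells 23.5%, 83.8%, 78.6% and 63%. Without thinning the endothelial-like shares were 95.2%, 100%, 95.7% and 98.9%, at median depths of 26755, 235733, 38539 and 201378 reads, and the podocyte-like shares 15%, 68.2% and 44.4%, at 61926, 246084 and 187086 reads. The endothelial-like shares of Eng were thus above those of podocyte-like wells in every pool, and in control 2 not above that of empty wells.

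Smad6 had a lower share in mesangial-like than in endothelial-like wells in every pool. Thinned endothelial-like wells held Smad6 reads in 74.3%, 52.4%, 73.8% and 40.9%, and mesangial-like wells in 29.6%, 6.15%, 0% (0 of 3 wells) and 13.6%. Empty wells gave 29.4%, 40%, 57.1% and 26.1%, below the endothelial-like share of the same pool in all 4. Unthinned, the endothelial-like shares were 81%, 82.1%, 72.9% and 84.9% and the mesangial-like shares 37.9%, 43.1%, 40% and 45.5%. Id3 was in 62.9%, 76.2%, 93.8% and 87.1% of thinned endothelial-like wells, and in 10%, 18.2% and 33.3% of podocyte-like wells. Bmpr2 was in 45%, 59.1% and 22.2% of thinned podocyte-like wells. All these intervals and shares cover counting error over wells only.

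**Figure D3:**
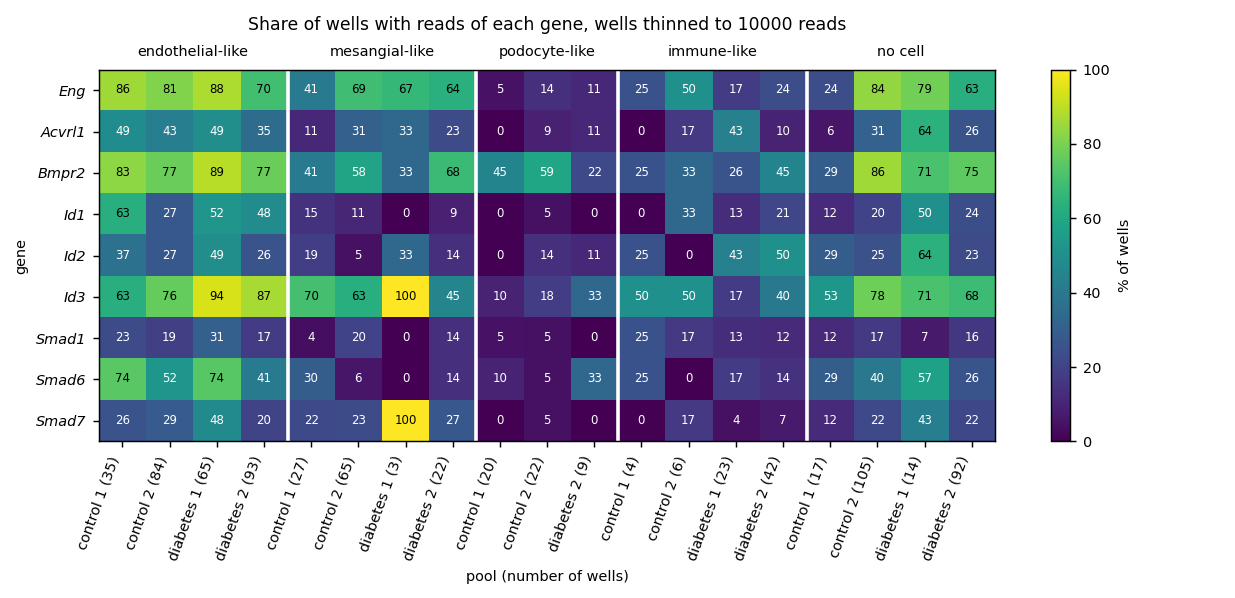
Share of wells (percent, colour and printed value) with reads of each gene (y axis), by cell class and pool (x axis, number of wells in brackets). Wells were thinned to 10000 reads, and those with fewer were dropped. Endothelial-like wells ranged from 17.2% for Smad1 to 93.8% for Id3, podocyte-like wells were at or below 59.1% for Bmpr2 and 33.3% for the others, and wells with no cell reached 85.7%.

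A thinned endothelial-like well held reads of a median of 5, 4, 6 and 4 of the 9 genes in control 1, control 2, diabetes 1 and diabetes 2. Mesangial-like wells held 2, 3, 4 and 2.5, immune-like wells 1, 1.5, 2 and 2, and podocyte-like wells 0, 1 and 1. Empty wells held 2, 4, 5 and 3. At least 1 Id gene was found in 30 of 35, 74 of 84, 64 of 65 and 89 of 93 endothelial-like wells, and all 3 Id genes in 3, 6, 16 and 13 of them. Empty wells held at least 1 Id gene in 13 of 17, 86 of 105, 12 of 14 and 72 of 92. All 3 Id genes were found in 0, 8, 5 and 5 of these empty wells, so such detection was not particular to endothelial-like wells. Across endothelial-like wells of 1 pool, the 36 pairs of members had median Spearman correlations of -0.02, 0.01, 0.05 and 0.05. These counts are sparse and weak correlations in them are no finding, and the highest pair reached 0.44 in control 1 with 35 wells.

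Diabetes against control was compared inside each class with the experiment as a block. In endothelial-like wells no member was called in either direction (edgeR, smallest adjusted p = 0.9999), none had an unadjusted p under 0.05, and DESeq2 called 0 members. The share of all 12546 genes called was 0.00797%, which is 1 gene. Eng stood at 737 CPM in control and 675 CPM in diabetes in experiment 1 and at 524 and 369 CPM in experiment 2, a fitted log2 change of -0.28 ± 0.30. Acvrl1 was the 1 member whose groups did not overlap, with 233 and 242 CPM in controls and 207 and 153 CPM in diabetes (-0.38 ± 0.38). The share of all genes without overlap between conditions was not counted, so this order is a description and no finding. Within the cluster of 106 wells, Acvrl1 stood at 197 and 301 CPM in controls and 143 and 157 CPM in diabetes. In the clusters of 66 and 117 wells the groups overlapped, with 263 and 218 CPM against 362 and 126 CPM, and 232 and 136 CPM against 139 and 156 CPM. The pools were spread differently over the clusters, as given above, and the part of this in the values of the joined class was not tested. The values of Id1 were also lower in diabetes in both experiments (373 to 208 and 129.9 to 114 CPM, -0.48 ± 0.40), while those of Bmpr2 (0.17 ± 0.28) and Id3 (0.14 ± 0.28) were higher in both. Id2, Smad1, Smad6 and Smad7 had opposite signs in the 2 experiments, with fitted changes between -0.09 and 0.16. The median over the members was -0.09, and over all genes 0.09.

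In mesangial-like wells the comparison rested on 5 wells in diabetes 1, and no member was called (edgeR, adjusted p = 1; 0 at an unadjusted p under 0.05; 0 by DESeq2), beside 0.127% of all genes. Id1 stood at 43.9 and 22.4 CPM in the controls and at 5.52 and 3.24 CPM in diabetes. The groups did not overlap, but the share of all genes without overlap was not counted. Those diabetes values were 2 and 20 reads, and the 2 reads are under the floor of 3 counts, which is 8.28 CPM in that sum. The fitted change was -2.87 ± 2.88 (unadjusted p = 0.318). In the thinned wells Id1 was in 14.8% and 10.8% of control wells and in 0 of 3 and 9.09% of diabetes wells. Smad1 stood at 29.9 CPM in control and 0 CPM in diabetes in experiment 1 and at 66.7 and 61.8 CPM in experiment 2, and the other 7 members had opposite signs in the 2 experiments. In the mesangial-like sum of diabetes 1, 1 well gave 91.1% of the Eng reads and 88.6% of the Bmpr2 reads. The median of the members was -0.17, and of all genes -0.44.

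In immune-like wells the controls had 5 and 6 wells, and again no member was called (edgeR, adjusted p = 1), beside 0.0474% of all genes, with 1 member at an unadjusted p under 0.05 and 0 by DESeq2. That member was Id2, which stood at 49.8 and 17.1 CPM in the controls and at 163 and 553 CPM in diabetes. The fitted change was 3.56 ± 1.65 (edgeR, unadjusted p = 0.0313). The groups did not overlap, and the share of all genes without overlap was not counted here either. The control values were 7 and 19 reads, of which a single well gave 100% and 89.5%. Thinned, Id2 was in 25% (1 of 4), 0% (0 of 6), 43.5% and 50% of immune-like wells, and unthinned in 20%, 33.3%, 55.6% and 69%. Without control 1, Id2 was called (adjusted p = 0.0458), in a fit without the block that called 359 genes. In the immune-like wells that a finer clustering also called immune-like (4, 3, 23 and 16), Id2 stood at 53.1, 3.32, 167 and 1025 CPM. The 12 immune markers summed to 41988, 10024, 46615 and 9521 CPM in the 4 immune-like sums and the erythroid genes to 20204 CPM in diabetes 2 alone among them, so these sums differed in makeup, and the part of that in the Id2 values was not tested. The other 8 members had fitted changes between -0.96 and 1.03.

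Whether the diabetes effect differed between endothelial-like and mesangial-like wells was tested by the interaction of class and condition. No member was called (edgeR, adjusted p = 1; 0 at an unadjusted p under 0.05; 0 by DESeq2), beside 0.00773% of all genes. The largest difference was that of Id1 at 2.44 ± 1.45 (unadjusted p = 0.0929), from the higher ratio in endothelial-like wells. The other 8 had unadjusted p-values between 0.327 and 0.926.

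**Figure D4:**
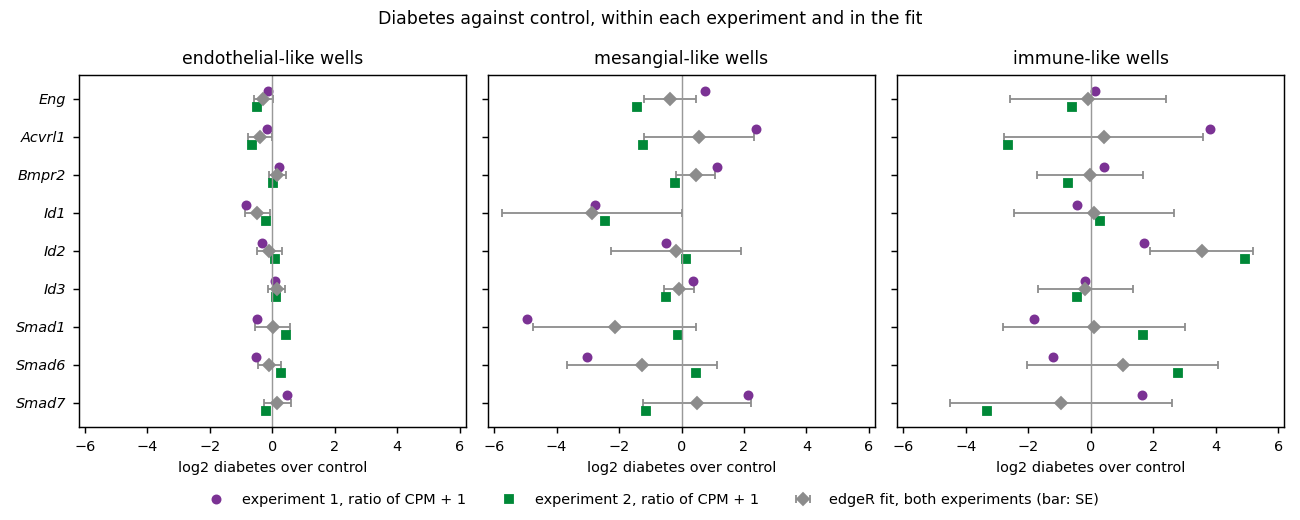
Log2 ratio of diabetes over control (x axis) for each of the 9 genes (y axis) in 3 cell classes, within experiment 1 and within experiment 2 (ratios of CPM + 1) and in the edgeR fit of both experiments (bar: 1 SE). Endothelial-like ratios stayed between -0.84 and 0.47, while those of mesangial-like and immune-like wells spread from -4.95 to 4.93, and Id2 in immune-like wells and Id1 in mesangial-like wells were among those with the same sign in both experiments.

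The levels also differed by experiment, which is given as a description without a test. In endothelial-like wells both sums of experiment 1 were above both sums of experiment 2 for 8 of 9 members, all but Acvrl1, where 21.6% of all genes were above and 20.1% below. The ratio of the means of the experiments was 5.11 for Smad6, 4.05 for Id2, 3.21 for Smad7 and 2.39 for Id1, and at most 1.65 for the other 5. After thinning the ratios were 4.72, 3.75, 2.58 and 3.42 for these 4, and Smad1 no longer had both sums above. Wells with no cell had the same order for 6 members, with ratios of 3.01 for Smad6, 4.05 for Id2, 2.05 for Smad7 and 3.20 for Id1. In mesangial-like wells both sums of experiment 1 were above for Id2 (ratio 12) and Id3 (ratio 3.11). The share of all genes with this order was not counted in wells with no cell or in mesangial-like wells. Depth differed by experiment as given above, and 13 genes induced by dissociation summed to 782, 1134, 805 and 908 CPM in the endothelial-like sums, lower in experiment 1. The part of either in these ratios was not tested.

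**Figure D5:**
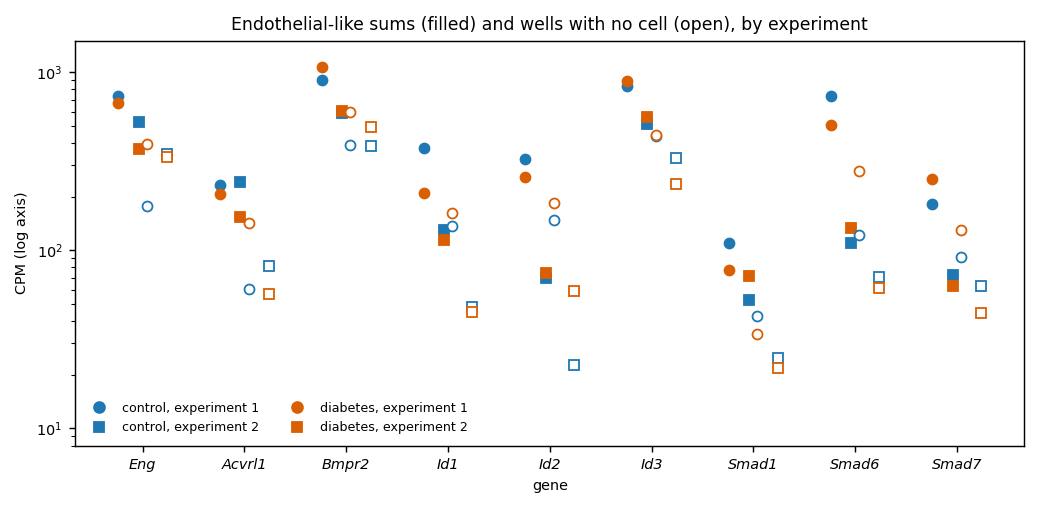
Level of each gene (x axis) in CPM on a log axis (y axis) in the endothelial-like sums (filled) and in wells with no cell (open) of the 4 pools, with colour for condition and shape for experiment; there are no error bars. Both circles of experiment 1 lie above both squares of experiment 2 for 8 of the 9 genes in endothelial-like wells and for 6 in wells with no cell.

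Among 53 other genes of the pathway, 35 passed the filter of the fit over classes. Against mesangial-like wells 1 of the 35 was called higher and 1 lower in endothelial-like wells. The higher one was Hey1, a transcriptional repressor and ALK1 and Notch target, at 80.4, 32.3, 43.8 and 37.3 CPM against 0, 0.545, 0 and 0.324 CPM (edgeR, adjusted p = 0.0438). Its fitted fold change depends on the prior count at such low levels and is not given. The lower one was Bmpr1a, the type I receptor ALK3, at 2.87, 3.53, 1.59 and 5.64 CPM against 78.5, 86.5, 82.8 and 77.9 CPM (-4.78 ± 1.14, adjusted p = 0.0264). The sums of either gene did not overlap between the 2 classes. Bmpr1a was also lower than in podocyte-like wells, which held 155, 266 and 49.2 CPM (-5.63 ± 1.25, adjusted p = 0.00910).

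Against podocyte-like wells 4 of the 35 were called higher in endothelial-like wells and 3 lower. Higher were Tcf4, an E protein that Id proteins bind (3.9 ± 0.88, edgeR, adjusted p = 0.00993), Tgfbr2, the type II receptor of transforming growth factor beta (3.35 ± 0.79, adjusted p = 0.0130), the extracellular BMP modulator Bmper (adjusted p = 0.0251) and Hey1 (adjusted p = 0.0283). The podocyte-like sums of these last 2 genes stood at 0, 0.694 and 0 CPM and at 0, 0 and 0.572 CPM, so their fitted fold changes depend on the prior count and are not given. Lower beside Bmpr1a were the ligand Bmp7 (-7.80 ± 1.12, adjusted p = 0.000231) and the BMP antagonist Nbl1 (-6.35 ± 1.69, adjusted p = 0.0267). Bmp7 stood at 278, 341 and 659 CPM in the podocyte-like sums and at no more than 9.47 CPM in the endothelial-like sums. Against immune-like wells the 1 call was Fstl1, a secreted follistatin-like protein (2.96 ± 0.66, adjusted p = 0.0133). Mesangial-like wells were lower than podocyte-like wells in Bmp7 (-5.44 ± 1.03, adjusted p = 0.00387) and Nbl1 (-6.11 ± 1.58, adjusted p = 0.0306). The ligands of ALK1 known from plasma, Gdf2 and Bmp10, had 0 reads in these classes and in the empty wells at this depth. No gene of the list was called between conditions in any class: in endothelial-like wells the smallest unadjusted p-values were those of Inhbb (0, 1.13, 17.6 and 23.3 CPM in control 1, control 2, diabetes 1 and diabetes 2, p = 0.0427) and Tcf4 (log2 change 0.64, p = 0.0587), and in mesangial-like wells those of Hes1 (log2 change -1.65, p = 0.00115, adjusted p = 0.454) and Fstl1 (1.19 on that scale, p = 0.0201). In immune-like wells they were those of Tgfb3 (0, 0, 23.7 and 14 CPM, p = 0.0524) and Smad5 (0, 0.902, 32.5 and 15.8 CPM, p = 0.111), and in the interaction those of Tcf4 (log2 difference 2.61, p = 0.00923) and Hes1 (1.45, p = 0.0603).

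The genes most like each member were ranked by Pearson's r of log2 levels over the same 15 sums of 4 classes, among 7367 genes. These sums share pools, libraries and classes, so an r says mostly that 2 genes share an order of classes. Eng was most like Itpkb (0.95), Fmnl3 (0.94) and Ldb2 (0.94), and Id1 most like Jam2 (0.95), Flt1 (0.94) and Arhgap31 (0.93). Acvrl1 was nearest to Klf2 (0.94), Bmpr2 to Sccpdh (0.94), Smad1 to Irf9 (0.94), Id2 to Srgn (0.87), Smad6 to Rtp3 (0.89) and Id3 to Fmnl3 (0.94). Smad7 was nearest to Eng (0.91), Tgfbr2 (0.90) and Acvrl1 (0.90), and Eng was also among the 3 nearest to Id3 (0.93). Between the members themselves, the 36 pairs had r between 0.0039 and 0.93, with a median of 0.62.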

How the data were processed

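RNA of single wells was measured in 4 pools. The deposited values are expected counts per gene and well. The authors worked with featureCounts 1.5.1, STAR 2.4.2a, cutadapt 1.11 and BWA 0.7.17-r1188 on mm10, per the submitters' processing notes, where the tools' roles, the annotation and the strand setting are not given. Of their values above 0, 74.1% and 79.3% (experiments 1 and 2) were whole. No molecular identifiers were counted. Symbols came from GENCODE M21 (45143 of 45792 identifiers).

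Wells imaged with 1 cell were kept at 500 or more genes and at most 30% mitochondrial reads. scanpy 1.11.5 clustered them (2000 variable genes, 15 components, Leiden resolution 0.8) without the 9 members and 53 pathway genes, and clusters were named from marker lists. No doublet caller was run, since wells were imaged. No 2 kept wells had identical values. Counts were summed per class and pool, rounded, and tested with edgeR 4.0.16 (quasi-likelihood, TMM, filterByExpr) if the sum held 5 or more wells; adjusted p under 0.05 was called. Class fits had the pool as a block and condition fits the experiment, since each array held both conditions. The correlation of deviations of pools of 1 experiment was 0.18, 0.07 and 0.17 in endothelial-like, mesangial-like and immune-like sums. Fits were also run on simulated sums, with 1 spread shared by all genes in a run and no differences between pools or experiments. Since the real sums differ in both, these runs do not show how many real changes the fits would miss. Each pool held 3 mice. With the pool as a block, p-values of class fits and of the interaction measure how class differences vary among pools, not the spread between pools. Those of condition fits measure how the diabetes difference varies between experiments. In all fits edgeR draws part of this spread from all genes together. Each condition fit has 1 residual degree of freedom, and the class fit has 8. The part drawn from all genes had a median weight of 14.2 degrees of freedom in the class fit. For diabetes in endothelial-like wells it was 6.87. This weight had no upper bound for a typical gene in 3 fits: the interaction, and diabetes in immune-like or mesangial-like wells. There the edgeR p-value of such a gene does not measure that gene's own spread. All 9 members were named; of the pathway genes, called ones up to 5 in each direction, else the 2 smallest p-values, and the 3 genes most like each member. The members and lists were chosen with earlier results of these data known.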

Additional observations from a re-analysis of the deposited data

Results flagged for a closer look

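Id3 had opposite signs of the diabetes ratio in 2 classes. In endothelial-like wells the log2 ratio of diabetes over control was 0.0937 in experiment 1 and 0.117 in experiment 2, and in immune-like wells it was -0.198 and -0.444. Every pool pair of a class moved 1 way, but the difference between the classes was not tested, and each ratio was small beside its standard error in the fit (0.28 and 1.51).

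Wells imaged with 2 cells were in no comparison. Id2 was above the empty wells in all 4 pools there, at 290.5, 66.4, 249.7 and 74.9 CPM in 12, 39, 23 and 24 wells against 147, 22.6, 184 and 59 CPM, and the lowest of these ratios was 1.27.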

How the results depend on the processing

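Up to 14 alternatives were run for each comparison. Of these, 1 kept sums of 2 or more wells, which brought in no further sum, so it repeated the main fit and is no check. Endothelial-like over mesangial-like wells gave 1 called member: 2 with DESeq2, without the low-count filter, with thinned wells, with finer clustering and with classes by markers alone, 3 with a stricter mitochondrial limit, 0 with the empty-well profile subtracted, and 0 to 0 without 1 pool. Against podocyte-like wells the 7 calls became 2 to 5 without 1 pool (2 without control 1 or without control 2) and 5 to 8 in the 10 other alternatives. Against immune-like wells the 2 calls became 4 with DESeq2, 5 with the stricter limit, 0 with markers alone and 0 to 3 without 1 pool (0 without control 1 or diabetes 1). The stricter limit, markers alone, finer clustering and thinning also left sums under 5 wells, which were dropped, so they changed which pools entered. Immune-like controls held 3 and 3 wells under the stricter limit and 4 and 3 with markers alone or finer clustering, so those comparisons rest on the diabetes pools, and podocyte-like diabetes 2 held 3 under the stricter limit. Mesangial-like over podocyte-like wells went from 2 to 5 with DESeq2, to 4 with thinned wells or the stricter limit, and to 1 to 2 without 1 pool. Without the replicate block, 0 members were called against mesangial-like and 1 against immune-like wells. Condition comparisons and the interaction stayed at 0 in every alternative run, except 0 to 1 without 1 pool in immune-like wells, where control 1 was left out. Condition fits without 1 pool have no block, while class fits and the interaction without 1 pool kept the pool as a block. The block changed no other count of members by over 1.5 times. RLE scaling moved the median of all genes from 0.42 to 0.24 against podocyte-like wells. Over all genes DESeq2 called 1024 instead of 280 (536 higher instead of 97), 1942 instead of 715, 1342 instead of 361 (785 higher instead of 103), 1502 instead of 493, and 79, 24, 7 and 14 instead of 1, 13, 4 and 1. Without 1 pool the lowest of these counts were 98, 190, 137, 86, 9, 1, 0 and 0, and the highest of the last 4 were 22, 27, 359 and 43. Sums with fewer than 5 wells in a pool gave no value for mesangial-like wells (thinned or by markers alone), immune-like wells (thinned, stricter limit, finer clustering, markers alone) and the interaction (thinned, markers alone). Thinning moved 83 of 144 shares of wells beyond their interval, and the stricter limit 13. The shallowest sum tested was immune-like control 1 with 140345 reads.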
